A study of Mus musculus with 23 samples.

Results

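The stress axis and glucocorticoid response genes are the corticosteroid receptors Nr3c1 and Nr3c2, the releasing hormone Crh with its receptors Crhr1 and Crhr2 and its binding protein Crhbp, the steroid-activating enzyme gene Hsd11b1, and the hormone-induced genes Fkbp5, Tsc22d3 and Sgk1. They were taken by gene name: every non-control probe that carried 1 of these 10 names was kept, which gave 12 of the 39429 probes tested. All 12 probes were well above background on all 12 arrays, which was true of 23753 probes in all, so no member was lost to a filter on low values.

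RNA from whole brain, cerebellum included, was measured in adult C57BL/6J males aged 19 weeks, with 4 arrays in each of 3 groups. The embryos, made by in vitro fertilization, were carried by ICR recipient mothers fed a control diet (CD, 20% casein and 0.02% folic acid), a protein-restricted diet (PR, 5% casein and 0.02% folic acid) or the restricted diet with added folic acid (FA, 5% casein and 0.1% folic acid). The mothers ate these diets from 1 month before embryo transfer. In all 3 groups the pups were delivered by caesarean section, fostered by ICR females, fed CD after weaning, and killed by cervical dislocation after behavioural tests. The study's text differs from place to place on whether the foster females ate CD alone or each of the diets, so the comparisons are of the diet groups as made and may not be limited to gestation.

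Each level below is the log2 of a normalized array intensity, each difference is the first group minus the second on that scale, and a probe was called at a Benjamini-Hochberg adjusted p under 0.05 in limma over all probes. PR vs CD and FA vs CD share the CD arrays, so the 2 comparisons are not independent of each other and are given side by side. Each group lay on a slide and a scan of its own, so the effect of a slide or scan and that of a diet cannot be told apart. The net signal of negative control spots was 28.1 to 34.8 on the CD arrays, 42.7 to 51.2 on the PR arrays and 39.3 to 47.6 on the FA arrays. Which mice shared a mother was not given in the sources used here, so p-values measure the spread between these arrays.

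Stress drives neurons of the hypothalamus to release CRH, the pituitary answers with corticotropin, and the adrenal cortex answers with glucocorticoid, which is corticosterone in the mouse. In the brain this hormone binds a high-affinity mineralocorticoid receptor and a lower-affinity glucocorticoid receptor, which enter the nucleus and switch on target genes. The glucocorticoid receptor in hypothalamus and pituitary also closes a negative feedback loop, and the abundance of its targets follows the hormone within hours.

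Nr3c1, the gene of the glucocorticoid receptor, was called lower in both restricted groups on 1 of its 2 probes and, on the other, in FA vs CD but not in PR vs CD. Probe A_52_P254174 read 9.11, 9.50, 8.94 and 8.82 in CD, 7.94, 8.04, 7.86 and 7.73 in PR, and 7.60, 8.10, 7.96 and 8.12 in FA. All 4 CD arrays lay above every PR and FA array, and the PR and FA arrays overlapped. In limma the level fell by 1.20 in PR vs CD (95% interval -1.55 to -0.85, adjusted p = 0.000363, n = 4 and 4), which left 0.436 of the CD level on this probe. It fell by 1.15 in FA vs CD (-1.49 to -0.80, limma adjusted p = 0.000394), and FA minus PR was 0.05 (-0.29 to 0.40, limma adjusted p = 0.926). Fewer cells of a type and less RNA per cell cannot be told apart in whole brain.

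The other Nr3c1 probe, A_55_P1967885, is the one with the higher mean and stands for the gene. It read 13.47, 13.39, 13.43 and 13.32 in CD, 13.29, 13.45, 13.21 and 13.25 in PR, and 13.20, 13.23, 13.11 and 13.03 in FA. The FA arrays all lay below the CD arrays, while PR replicate 2 reached into the CD range. The level fell by 0.26 in FA vs CD (-0.40 to -0.12, limma adjusted p = 0.0106), which left 0.837 of the CD level. PR minus CD was -0.10 (-0.24 to 0.04, limma adjusted p = 0.270). It was -0.18 with 75th percentile scaling (limma adjusted p = 0.0588) and -0.15 with normexp (limma adjusted p = 0.115), not called in either. FA minus PR was -0.16 with an unadjusted limma p of 0.0321 that did not pass adjustment (adjusted p = 0.296). The 2 probes thus differed in their calls in PR vs CD and had the same call, of different size, in FA vs CD. Both lie on the minus strand of chromosome 18 (build mm9), at 39574183 to 39574242 and at 39571641 to 39571700, with starts 2542 bases apart, and both are assigned to 1 transcript in the array design. The probes were not placed in exons or searched for cross-hybridisation here, so neither size is settled as that of the gene.

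Nr3c2, the gene of the mineralocorticoid receptor, was not called in any comparison. It read 7.81, 7.87, 7.65 and 7.61 in CD, 7.53, 7.69, 7.55 and 7.87 in PR, and 7.46, 7.67, 7.27 and 7.62 in FA. The 3 groups overlapped, with FA replicate 3 the lowest array. The limma differences were -0.07 in PR vs CD (-0.31 to 0.16, adjusted p = 0.635), -0.23 in FA vs CD (-0.47 to 0.01, adjusted p = 0.124, and -0.13 after normexp background correction) and -0.16 in FA vs PR (-0.39 to 0.08, adjusted p = 0.577).

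**Figure D1:**
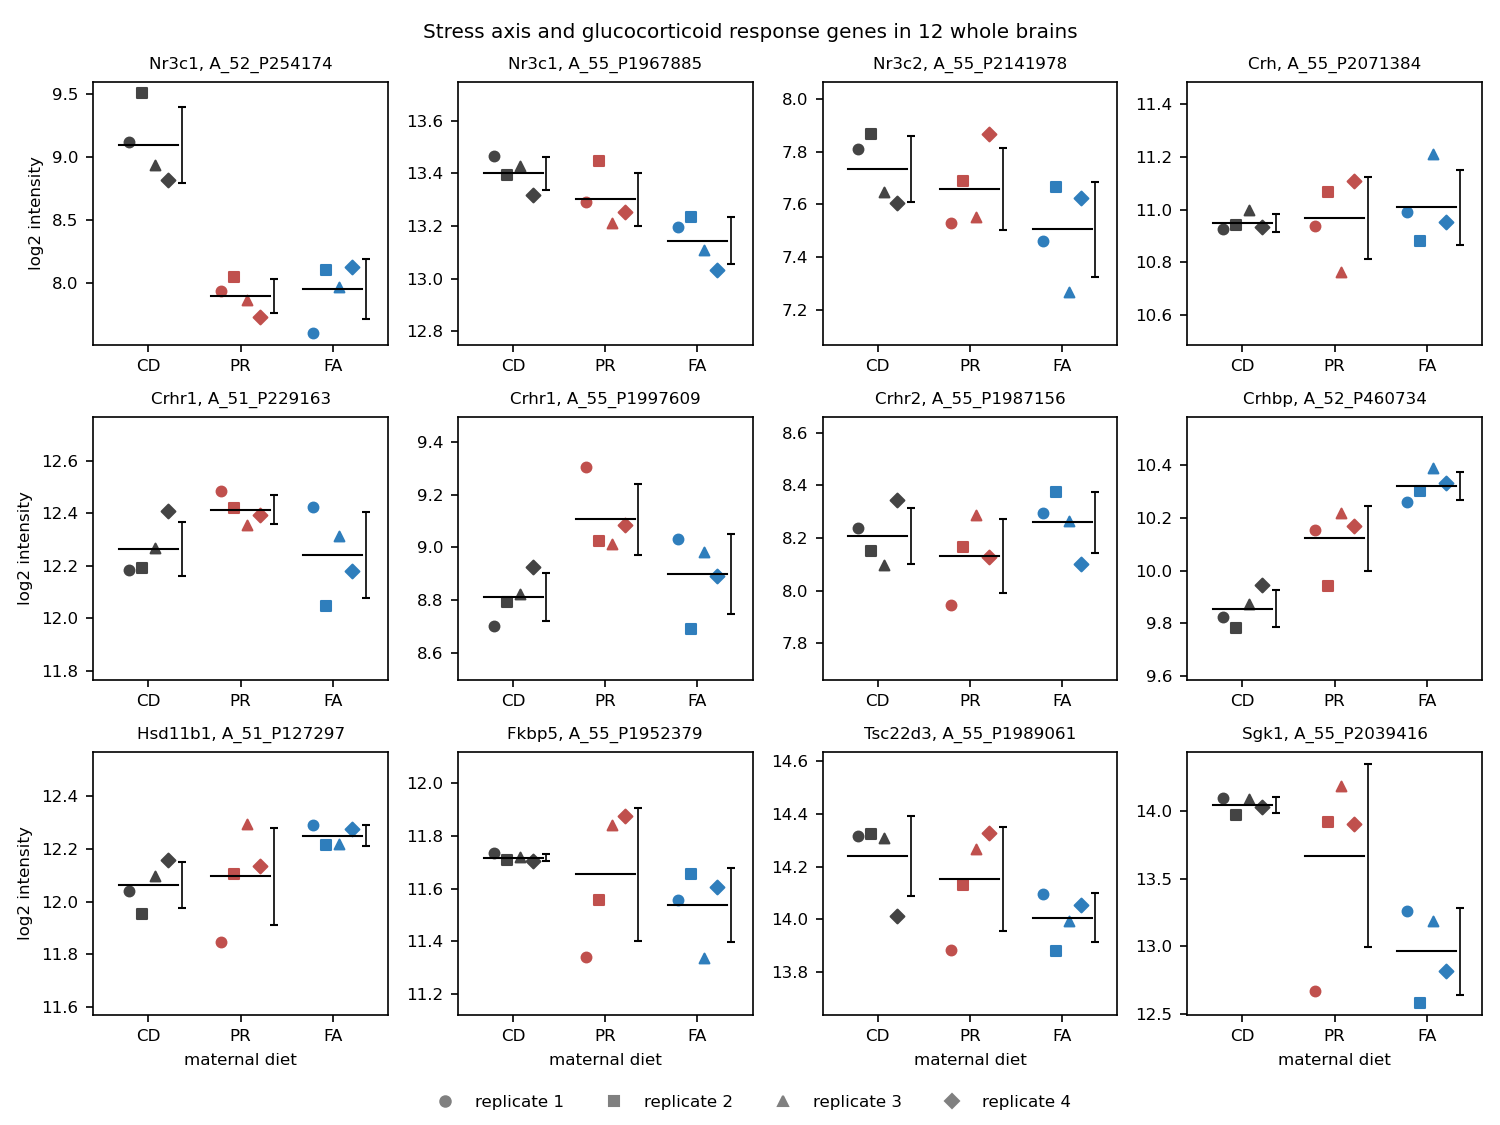
Log2 normalized intensity of each of the 12 probes on each array, with 1 panel per probe and 4 arrays per diet group (CD, PR and FA); the bar is the group mean and the error bar its SD. The CD arrays of Nr3c1 A_52_P254174 all lie above the other 8, Crhbp is higher in FA than in CD on every array, and PR replicate 1 is the lowest PR array of Fkbp5, Tsc22d3 and Sgk1.

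Crh itself, the hypothalamic peptide that starts the axis, did not pass the test in any comparison. Its levels were 10.93, 10.94, 11.00 and 10.94 in CD, 10.94, 11.07, 10.76 and 11.11 in PR, and 10.99, 10.88, 11.21 and 10.95 in FA. The CD arrays lay close together and the other 2 groups spread to both sides of them. The limma differences were 0.02 in PR vs CD (-0.17 to 0.21, adjusted p = 0.894), 0.06 in FA vs CD (-0.13 to 0.25, adjusted p = 0.635) and 0.04 in FA vs PR (adjusted p = 0.885).

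Crhbp, the secreted protein that binds CRH and keeps it from its receptors, rose in both restricted groups. It read 9.82, 9.78, 9.87 and 9.94 in CD, 10.16, 9.94, 10.22 and 10.17 in PR, and 10.26, 10.30, 10.39 and 10.33 in FA. Each FA array was above all CD and all PR arrays, and the PR arrays were above CD except for PR replicate 2, which met CD replicate 4 at 9.94. Crhbp was 0.27 higher in PR than in CD (0.12 to 0.41, 1.20-fold, limma adjusted p = 0.0109) and 0.47 higher in FA than in CD (0.32 to 0.61, 1.38-fold, limma adjusted p = 0.000422). FA minus PR was 0.20 (0.06 to 0.34), with no overlap between the groups, but it did not pass adjustment in limma (unadjusted p = 0.0108, adjusted p = 0.195).

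Crhr1 encodes the main CRH receptor of brain and pituitary, and its 2 probes differed in their calls. The probe with the higher mean, A_51_P229163, read 12.19, 12.19, 12.27 and 12.41 in CD, 12.49, 12.42, 12.35 and 12.39 in PR, and 12.42, 12.05, 12.31 and 12.18 in FA. CD replicate 4 lay inside the PR range, and FA overlapped both groups. It was not called in PR vs CD (0.15, -0.03 to 0.33, limma adjusted p = 0.193), in FA vs CD (-0.02, limma adjusted p = 0.862) or in FA vs PR (-0.17, limma adjusted p = 0.378).

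Crhr1 probe A_55_P1997609, which starts 509 bases away on chromosome 11, read 8.70, 8.79, 8.82 and 8.93 in CD, 9.30, 9.03, 9.01 and 9.08 in PR, and 9.03, 8.69, 8.98 and 8.89 in FA. All PR arrays were above all CD arrays, by a narrow gap, and FA overlapped both. It rose by 0.30 in PR vs CD (0.10 to 0.49, 1.23-fold, limma adjusted p = 0.0303). The call was lost when CD replicate 1, CD replicate 2, CD replicate 3, PR replicate 1 or PR replicate 4 was left out (adjusted p up to 0.0782, difference 0.23 to 0.33 over all 12 omissions) and with the Tukey test of the study's methods (adjusted p = 0.0924). FA minus CD was 0.09 (limma adjusted p = 0.484) and FA minus PR was -0.21 (unadjusted p = 0.0413, limma adjusted p = 0.330).

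Crhr2, the receptor that prefers the urocortin peptides, was not called. It read 8.24, 8.15, 8.10 and 8.34 in CD, 7.95, 8.17, 8.29 and 8.13 in PR, and 8.30, 8.38, 8.27 and 8.10 in FA. The 3 groups covered nearly the same range, with PR replicate 1 the lowest array. The limma differences were -0.08 in PR vs CD (adjusted p = 0.539), 0.05 in FA vs CD (adjusted p = 0.672, and -0.01 after normexp background correction) and 0.13 in FA vs PR (adjusted p = 0.563).

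Hsd11b1 encodes the reductase that turns inactive 11-dehydrocorticosterone back into corticosterone inside cells. It read 12.04, 11.95, 12.10 and 12.16 in CD, 11.85, 12.11, 12.29 and 12.14 in PR, and 12.29, 12.22, 12.22 and 12.27 in FA, each value averaged over the 10 spots of its probe. The 4 FA arrays lay close together above all CD arrays, and PR spread from the lowest to the highest array of the set. FA minus CD was 0.19 (0.00168 to 0.38) with an unadjusted limma p of 0.0483 and an adjusted p of 0.110. It passed the test without PR replicate 1 (adjusted p = 0.0324) and when only the 2 groups were fitted (adjusted p = 0.0340). PR minus CD was 0.03 (limma adjusted p = 0.796) and FA minus PR was 0.16 (limma adjusted p = 0.455).

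Of the 3 hormone-induced members, only Sgk1 was called, in FA vs CD. Sgk1, a kinase that regulates ion channels and transporters, read 14.10, 13.97, 14.09 and 14.03 in CD, 12.67, 13.92, 14.19 and 13.91 in PR, and 13.26, 12.58, 13.19 and 12.82 in FA. All FA arrays were below all CD arrays, while 3 PR arrays lay in or near the CD range and PR replicate 1 lay among the FA arrays. Sgk1 fell by 1.09 in FA vs CD (-1.73 to -0.45, limma adjusted p = 0.0146), which left 0.471 of the CD level. That call was not made by the Tukey test (adjusted p = 0.0594). PR minus CD was -0.38 (-1.02 to 0.26, limma adjusted p = 0.353) and FA minus PR was -0.71 (-1.35 to -0.07, unadjusted p = 0.0326, limma adjusted p = 0.298).

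Fkbp5, a co-chaperone that lowers the receptor's affinity for hormone and is itself induced by it, read 11.74, 11.71, 11.72 and 11.70 in CD, 11.34, 11.56, 11.84 and 11.88 in PR, and 11.55, 11.65, 11.33 and 11.61 in FA. The CD arrays had an SD of 0.01, PR split to both sides of them, and all FA arrays lay below CD. The differences did not pass limma in PR vs CD (-0.06, -0.32 to 0.19, adjusted p = 0.706), in FA vs CD (-0.18, -0.43 to 0.07, adjusted p = 0.254) or in FA vs PR (-0.12, adjusted p = 0.716).

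Tsc22d3, which encodes the glucocorticoid-induced leucine zipper protein, read 14.32, 14.32, 14.31 and 14.01 in CD, 13.88, 14.13, 14.27 and 14.33 in PR, and 14.09, 13.88, 13.99 and 14.05 in FA. CD replicate 4 stood apart from the other CD arrays and fell inside the FA range. FA minus CD was -0.23 (-0.47 to -0.00189, unadjusted p = 0.0485, limma adjusted p = 0.110). It passed the test without CD replicate 4 (adjusted p = 0.0358) and with 75th percentile scaling (adjusted p = 0.0244). PR minus CD was -0.09 (limma adjusted p = 0.562) and FA minus PR was -0.15 (limma adjusted p = 0.593). With 75th percentile scaling PR minus CD was -0.20 (limma adjusted p = 0.147), and with normexp it was -0.05 (limma adjusted p = 0.759).

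PR replicate 1 was the lowest PR array for all 3 hormone-induced members. Without it, PR minus CD in limma was 0.04 for Fkbp5 (adjusted p = 0.784), 0.00181 for Tsc22d3 (adjusted p = 0.991) and -0.04 for Sgk1 (adjusted p = 0.869). Sgk1 then also passed in FA vs PR (-1.05, limma adjusted p = 0.0481) and its adjusted p in FA vs CD was 0.000545. The same array was the lowest PR array for 16 of 24 other glucocorticoid-induced genes (66.7%), against 33.7% of the 23753 probes detected on every array; the other PR arrays were lowest for 5, 2 and 1. Among these genes Nfkbia, which encodes an inhibitor of NF-kappaB, read 12.23 in PR replicate 1 and at least 12.75 in the other PR arrays, and Ddit4, a stress-induced inhibitor of mTOR signalling, read 14.16 against at least 14.56. In the other groups the lowest counts were 7, 3, 1 and 13 of 24 for CD replicates 1 to 4 and 3, 6, 11 and 4 for FA replicates 1 to 4, so CD replicate 4 and FA replicate 3 were also low more often than their fellows; over all probes detected on every array these 2 were the lowest of their group in 33.1% and 27.8%.

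**Figure D2:**
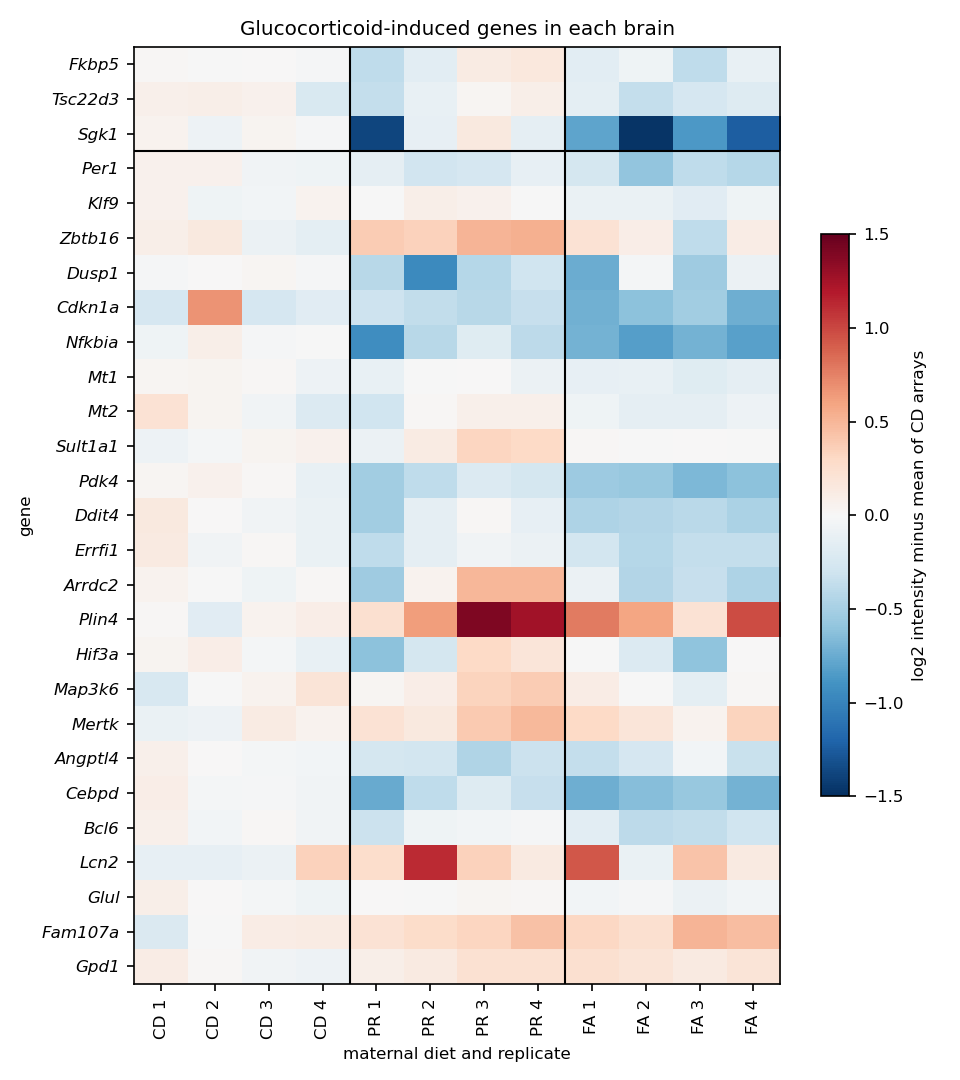
Colour shows the log2 intensity minus the mean of the CD arrays for Fkbp5, Tsc22d3 and Sgk1 (top) and the 24 other glucocorticoid-induced genes (rows) on each of the 12 arrays (columns), blue for lower and red for higher. PR replicate 1 is the lowest of the 4 PR arrays in 16 of the 24 genes and in all 3 members.

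Deviations from the group means were compared between these 3 members over the 12 arrays, with p from the 13824 exact permutations within groups and adjustment over the 3 relations. Tsc22d3 and Sgk1 had r = 0.720 (exact permutation p = 0.0292, adjusted 0.0875) and rho = 0.643 (p = 0.0331, adjusted 0.0992), and without PR replicate 1 and CD replicate 4 r was 0.532 and rho was 0.261. Fkbp5 and Tsc22d3 had r = 0.617 (exact permutation p = 0.0714, adjusted 0.107) and rho = 0.657 (p = 0.124, adjusted 0.187). Fkbp5 and Sgk1 had r = 0.527 (exact permutation p = 0.336, adjusted 0.336) and rho = 0.252 (p = 0.588, adjusted 0.588). None passed after adjustment, and without PR replicates 1 and 4 the relations of Fkbp5 fell to r = 0.154 with Tsc22d3 and -0.288 with Sgk1, so they rest on those arrays. Within CD, PR and FA, r was 0.623, 0.980 and -0.181 for Fkbp5 and Tsc22d3, 0.737, 0.850 and -0.699 for Fkbp5 and Sgk1, and 0.175, 0.906 and 0.726 for Tsc22d3 and Sgk1, with 4 arrays each.

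By the same deviations, the named probes most like each member were listed among 23231 probes, as a description with no test. For Fkbp5 they were Spata2 (r = 0.940, rho = 0.867), Arhgef3 (0.930, 0.958), Hif3a (0.926, 0.881), Sdcbp2 (0.924, 0.797) and Golt1b (0.919, 0.825). For Tsc22d3 they were Ermp1 (r = 0.939, rho = 0.937), AI464196 (0.904, 0.783), Grinl1a (0.900, 0.832), Rpl22 (0.884, 0.846) and Hspa9 (0.883, 0.776). For Sgk1 they were Polr3e (r = 0.967, rho = 0.930), Sh3bp2 (0.945, 0.860), Nfkbia (0.925, 0.685), 2510002D24Rik (0.924, 0.720) and Arrdc2 (0.920, 0.776). Leaving out the 2 arrays farthest from the median left r at 0.802 or more for the Fkbp5 list, 0.516 or more for the Tsc22d3 list and 0.549 or more for the Sgk1 list.

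In PR vs CD, 3 of the 12 member probes were called, 2 higher (Crhbp and Crhr1 A_55_P1997609) and 1 lower (Nr3c1 A_52_P254174). Over all 39429 probes the called share was 30.0%, with 13.4% higher and 16.6% lower. The groups did not overlap for 2 of the 12, against 33.2% of all probes. In FA vs CD, 4 of 12 were called, 1 higher (Crhbp) and 3 lower (both Nr3c1 probes and Sgk1), where the shares over all probes were 34.4% called, 16.4% higher and 18.0% lower. Here 6 of 12 did not overlap (Crhbp and Hsd11b1 above, both Nr3c1 probes, Fkbp5 and Sgk1 below), against 36.9% of all probes. The called shares of the members lay near the background of each comparison. The median absolute difference of the members was 0.09 in PR vs CD and 0.21 in FA vs CD, beside 0.20 and 0.22 over all probes and 0.15 and 0.17 over the probes that, like the members, were detected on every array.

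In FA vs PR, limma called 0 of the 12 member probes, 4 had an unadjusted p under 0.05, as had 14.1% of all probes (Nr3c1 A_55_P1967885, Crhr1 A_55_P1997609, Crhbp and Sgk1), and the Tukey test called 0. Without PR replicate 1 the count was 1 (Sgk1). Over all probes 0.614% were called, 0.228% higher and 0.386% lower. Only Crhbp did not overlap between these groups, where 11.1% of all probes did not. The median absolute difference was 0.16 for the members, 0.10 over all probes and 0.08 over the probes detected on every array.

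**Figure D3:**
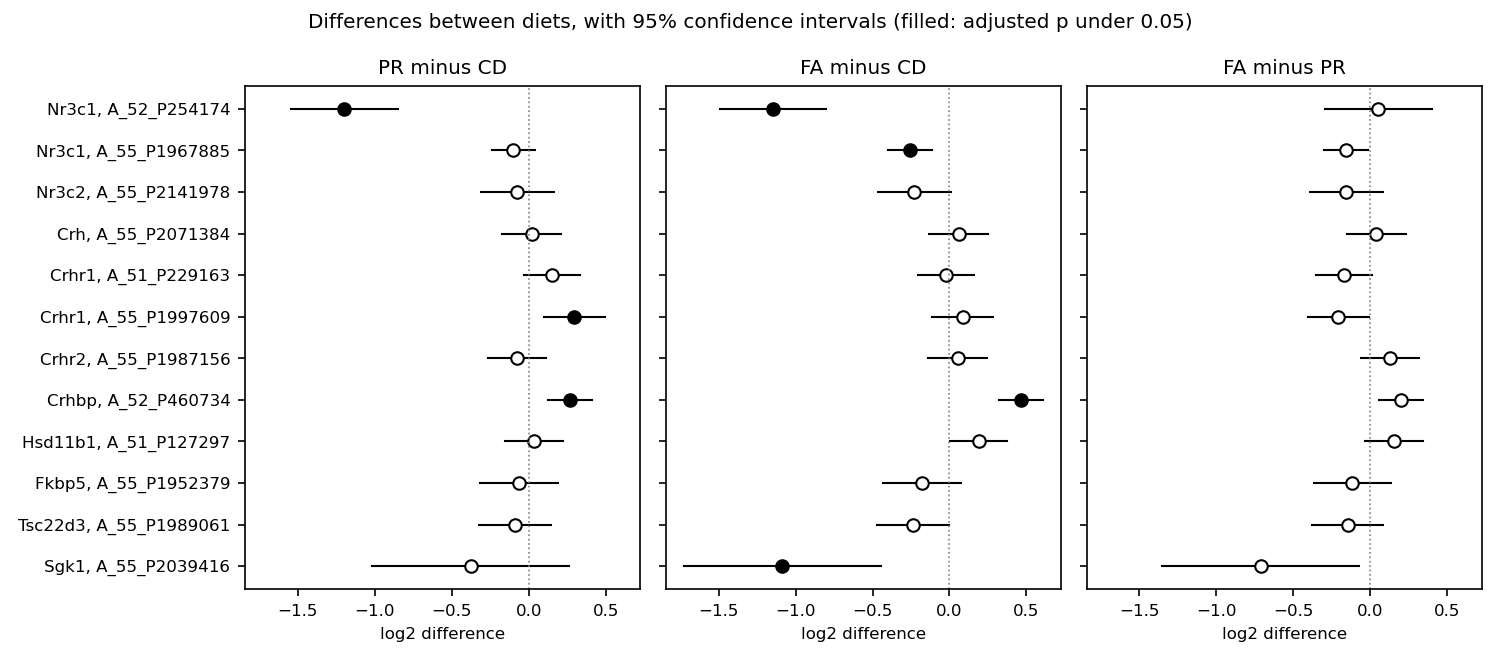
Log2 difference of each member probe in PR vs CD, FA vs CD and FA vs PR, with its 95% interval from limma; filled points passed at an adjusted p under 0.05. The largest differences are those of Nr3c1 A_52_P254174 in both comparisons with CD and of Sgk1 in FA vs CD.

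The promoters of the members were searched in RefSeq sequence of build GRCm38.p6, from 250 bases before to 50 bases after each gene start, because several members are induced through the glucocorticoid receptor. Of the 9 genes searched, all but Nr3c1, 8 were matched by symbol (all but Crh), with 15 promoters in all. The receptor's 6-base motif AGAACA, on either strand, was in 6233 of 32851 promoters (19%), and the full palindrome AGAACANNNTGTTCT, which contains it on both strands, was in 3 (0.00913%). The 6-base motif was in 3 of 6 Sgk1 promoters and 1 of 3 Tsc22d3 promoters, and in none of the single promoters of Fkbp5, Nr3c2, Crhr1, Crhr2, Crhbp and Hsd11b1. One Sgk1 promoter held the palindrome, whose first base lies 189 bases before the start at 21993890. The palindrome and the Tsc22d3 match are shown from 5′ to 3′ with the motif in capitals, for Sgk1 at chr10:21993640-21993740 on the plus strand and for Tsc22d3 at chrX:140600677-140600732 on the minus strand; the matches of the other 2 Sgk1 promoters are not shown. A match describes these letters and is not a measured binding site.
Sgk1: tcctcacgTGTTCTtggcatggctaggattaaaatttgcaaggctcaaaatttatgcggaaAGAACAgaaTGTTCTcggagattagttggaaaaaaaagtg
Tsc22d3: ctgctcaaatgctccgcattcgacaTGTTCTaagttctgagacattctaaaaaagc

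The other glucocorticoid-induced genes were more often lower than higher in FA and split evenly in PR. Of 24 genes, all detected, 2 rose and 10 fell in FA vs CD (median difference -0.17), 5 rose and 5 fell in PR vs CD (median -0.04), and limma called 0 in FA vs PR (median -0.18, 9 with an unadjusted p under 0.05 where 14.1% of all probes had one, Tukey 0). Over all probes 16.4% rose and 18.0% fell in FA vs CD, and 13.4% rose and 16.6% fell in PR vs CD. In FA vs PR 0.614% of all probes were called. The Tukey test called 3 of the 24 genes in PR vs CD and 10 in FA vs CD. Of all 39429 probes it called 8354 in PR vs CD and 10037 in FA vs CD. With 75th percentile scaling the counts were 1 higher and 12 lower in FA vs CD and 3 higher and 11 lower in PR vs CD. Of all 39429 probes that scaling called 6147 higher and 9544 lower in FA vs CD, and 6030 higher and 8732 lower in PR vs CD. Nfkbia read 13.10, 13.26, 13.15 and 13.16 in CD, 12.23, 12.75, 12.98 and 12.77 in PR, and 12.46, 12.34, 12.46 and 12.35 in FA. Every PR and FA array of Nfkbia was below every CD array, and it fell by 0.48 in PR vs CD (limma adjusted p = 0.0186) and by 0.76 in FA vs CD (limma adjusted p = 0.00142). Cebpd, a transcription factor induced by glucocorticoid and cytokines, fell by 0.66 in FA vs CD (limma adjusted p = 0.00076), and Dusp1, a phosphatase that turns off MAP kinases, fell by 0.53 in PR vs CD (limma adjusted p = 0.0441). Those that rose most were Plin4, a lipid droplet protein (0.88, adjusted p = 0.0214), and Zbtb16, a zinc finger repressor (0.44, adjusted p = 0.0209), in PR vs CD, and Fam107a (0.38, adjusted p = 0.00782, with -0.33 and 0.0534 on its other probe) and Gpd1, an enzyme of glycerol metabolism (0.19, adjusted p = 0.0160), in FA vs CD. Single arrays moved the PR counts: without PR replicate 4 the list had 0 higher and 5 lower, without PR replicate 3 it had 1 and 4, without CD replicate 2 it had 2 and 4, without CD replicate 3 it had 3 and 4, and without PR replicate 1 it had 6 and 4. Plin4 was not called without CD replicate 2, PR replicate 3 or PR replicate 4 (adjusted p up to 0.0619), Zbtb16 without CD replicate 3, PR replicate 3 or PR replicate 4 (up to 0.0571), and Dusp1 without any 1 CD array, PR replicates 1, 2 or 3, or FA replicate 3 (up to 0.0962). Gpd1 was 0.07 in FA vs CD with 75th percentile scaling (adjusted p = 0.315) and lost its call with normexp (0.0530).

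Of 14 chaperones and co-regulators that act on the receptors, 2 rose and 2 fell in PR vs CD and 1 rose and 4 fell in FA vs CD. Over all probes 30.0% and 34.4% were called in these comparisons. In FA vs PR limma called 0 (3 with an unadjusted p under 0.05, Tukey 0), where the shares of all probes were 0.614% called and 14.1% with such a p. With 75th percentile scaling the counts were 0 higher and 3 lower in PR vs CD and 0 higher and 6 lower in FA vs CD. That scaling called 6030 of all 39429 probes higher and 8732 lower in PR vs CD, and 6147 higher and 9544 lower in FA vs CD. Ncoa3, a steroid receptor coactivator, read 12.64, 12.68, 12.45 and 12.48 in CD, 12.01, 12.15, 11.99 and 12.01 in PR, and 11.99, 12.04, 11.87 and 11.98 in FA. The CD arrays stood clear of both other groups, and Ncoa3 fell by 0.52 in PR vs CD (limma adjusted p = 3e-04) and by 0.59 in FA vs CD (limma adjusted p = 0.000135). Its other probe, A_55_P2071868, also detected on every array, was not called (0.000331 and -0.02, adjusted p = 0.998 and 0.879). Ptges3, the co-chaperone p23, fell by 0.17 and 0.18 (adjusted p = 0.00631 and 0.00330, and by 0.31 in both comparisons with 75th percentile scaling; 1 of its 3 other probes was not called in PR vs CD, adjusted p = 0.0607), and the coactivators Ncoa1 and Ncoa2 fell by 0.25 and 0.23 in FA vs CD (adjusted p = 0.0126 and 0.0428), with 1 of the 2 other Ncoa1 probes not called (-0.15, adjusted p = 0.145). Fkbp4, the counterpart of Fkbp5 that favours receptor transport, rose by 0.27 in PR vs CD (adjusted p = 0.0463). The chaperone gene Hsp90ab1 was 0.12 higher in both comparisons (adjusted p = 0.0206 and 0.0187), but -0.12 and -0.07 with 75th percentile scaling. Hsp90ab1 also lost its call without PR replicate 4 in PR vs CD (adjusted p = 0.0539) and without FA replicate 4 in FA vs CD (adjusted p = 0.0537). Fkbp4 lost its call without any 1 of 8 arrays (CD replicates 1, 3 and 4, PR replicates 1, 3 and 4, FA replicates 2 and 4, adjusted p up to 0.116) and with 75th percentile scaling (0.0685), and Ncoa2 without any 1 of 8 (CD replicates 1, 2 and 3, PR replicates 1, 3 and 4, FA replicates 1 and 3, up to 0.110).

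The other ligands and receptors of the axis (Ucn, Ucn2, Ucn3, Avp, Avpr1a, Avpr1b, Oxt, Pomc, Mc2r, Adcyap1, Adcyap1r1, Pcsk1 and Pcsk2) gave 0 calls among 13 genes, 10 of them detected, in each comparison in limma. The number with an unadjusted p under 0.05 was 2 in PR vs CD, 2 in FA vs CD and 0 in FA vs PR, and the Tukey test called 0 in all 3. Over all probes, limma called 30.0% in PR vs CD, 34.4% in FA vs CD and 0.614% in FA vs PR. The shares of all probes with an unadjusted p under 0.05 were 41.1%, 44.4% and 14.1% in the same order. Pomc, Oxt, Avp and Pcsk1, named here after their values were seen, had every PR array below every CD array without a call (-0.52, -0.52, -0.35 and -0.14, limma adjusted p = 0.107, 0.340, 0.204 and 0.126). The PR and CD arrays did not overlap for 33.2% of all probes, so such a separation was common. FA replicate 2 was far below the other FA arrays for Oxt (11.68 against at least 13.16) and Pomc (9.13 against at least 10.10), and without it these 2 passed in PR vs CD. Leaving out 1 array also made calls for Pcsk2 (higher in PR vs CD without CD replicate 2 or PR replicate 2), Avpr1b and Adcyap1 (higher in FA vs CD without FA replicate 1 and FA replicate 2) and Avp and Pcsk1 (lower in FA vs CD without FA replicate 3). With 75th percentile scaling Ucn3 was called higher in PR vs CD. After normexp correction Pcsk2 was higher in both comparisons with CD and Avp lower in FA vs CD. These Pcsk2 calls are of probe A_51_P229613; its other probe, detected on every array, went the other way without a call (-0.48 in PR vs CD and -0.56 in FA vs CD, limma adjusted p = 0.139 and 0.0797). Avpr1b was well above background on 0 arrays. Of the genes of corticosteroid synthesis, metabolism and transport, 8 of 13 were detected. In PR vs CD 2 of the 13 rose, where 13.4% of all probes did: Abcb1b, a drug efflux transporter that exports steroids (0.34, adjusted p = 0.0222), and Hsd11b2, the enzyme that inactivates corticosterone (adjusted p = 0.0340). Hsd11b2 was well above background on 0 CD, 2 PR and 0 FA arrays, and its call was lost without any 1 of 6 arrays (the 4 CD arrays, PR replicates 3 and 4, adjusted p up to 0.0923) and with 75th percentile scaling (0.0897) or normexp (0.0870). In FA vs CD 2 rose, where 16.4% of all probes did: Cyp11a1, the enzyme of the first step of steroid synthesis (0.67, adjusted p = 0.00649), and Abcb1b (0.38, adjusted p = 0.0114). With 75th percentile scaling the list had 3 higher and 2 lower in PR vs CD and 2 higher and 2 lower in FA vs CD, where the lower ones, Cyp11b2 and Hsd3b1, were well above background on 0 arrays. That scaling called 6030 of all 39429 probes higher and 8732 lower in PR vs CD, and 6147 higher and 9544 lower in FA vs CD. With normexp Cyp11a1 was 0.32 and Abcb1b 0.25 in FA vs CD, and Abcb1b was 0.21 in PR vs CD, all still called. Abcb1b lost its call in PR vs CD without CD replicate 1, CD replicate 2, PR replicate 1 or PR replicate 4 (adjusted p up to 0.0624). Limma called 0 of 13 in FA vs PR (2 with an unadjusted p under 0.05, Tukey 0).

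Among the 4 other steroid hormone receptors, 2 fell in each comparison with CD, where 16.6% (PR) and 18.0% (FA) of all probes fell. Esr2, the beta estrogen receptor, read 11.14, 11.33, 10.92 and 10.96 in CD, 10.61, 10.47, 10.57 and 10.57 in PR, and 10.57, 10.69, 10.39 and 10.62 in FA. All CD arrays of Esr2 were above the rest, and it fell by 0.53 in PR vs CD (limma adjusted p = 0.00197) and by 0.52 in FA vs CD (limma adjusted p = 0.00189). Pgr, the progesterone receptor, fell by 0.21 in PR vs CD (limma adjusted p = 0.0226), a call that was lost without CD replicate 1, CD replicate 2 or CD replicate 3 (adjusted p up to 0.0556) and with normexp (0.119), and its other probe was not called (-0.21, adjusted p = 0.298). Esr1, the alpha estrogen receptor, fell by 0.41 in FA vs CD (limma adjusted p = 0.00631, and by 0.20 with normexp). Limma called 0 of 4 in FA vs PR (0 with an unadjusted p under 0.05, Tukey 0), where 0.614% of all probes were called and 14.1% had such a p.

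Of 8 pituitary markers, 2 fell in PR vs CD and the same 2 in FA vs CD, where 16.6% and 18.0% of all probes fell. These 2, Gh and Prl, the hormones of pituitary somatotrophs and lactotrophs, were well above background on 4 CD arrays, 0 PR arrays and 1 FA array. Gh read 7.84, 8.37, 7.73 and 7.82 in CD, and the 1 FA array that measured it, replicate 4, read 6.16. Prl read 7.89, 7.84, 7.98 and 7.91 in CD and 7.35 in FA replicate 4. In PR vs CD both were called lower (limma adjusted p = 0.000549 for Gh and 0.00562 for Prl). With the PR side set no lower than the lowest signal well above background on each array, Gh was 19.8-fold and Prl 18.7-fold lower. That signal is the dimmest flagged probe of an array and not a detection limit of these 2 probes, so the folds are not firm bounds. Both also fell in FA vs CD (limma adjusted p = 0.00105 and 0.00664). No size is given for FA vs CD, because 3 of the 4 FA arrays were not above background. After normexp correction with an offset of 50, which lifts low signals, Gh and Prl were still called lower in both comparisons with CD. In that setting the differences in PR vs CD were -1.92 for Gh and -1.63 for Prl, and these too depend on the low PR signals. No size is given for FA vs CD from that setting either. Limma called 0 of the 8 in FA vs PR (0 with an unadjusted p under 0.05, Tukey 0), where 0.614% of all probes were called and 14.1% had such a p. Of the other markers, Fshb and Tbx19 were well above background on 0 CD arrays and Tshb on 1. Cga, detected on 4 CD, 4 PR and 3 FA arrays, had every FA array below every CD array without a call (limma adjusted p = 0.153 in FA vs CD and 0.497 in PR vs CD). The FA and CD arrays did not overlap for 36.9% of all probes. Lhb, detected on every array, was not called (-0.07 in PR vs CD and 0.13 in FA vs CD, adjusted p = 0.756 and 0.526). The summed intensity of the list was 16316, 21819, 18373 and 21063 in CD, 17899, 13073, 14196 and 24349 in PR, and 17708, 15635, 17347 and 17607 in FA, of which the signal of a Pou1f1 probe made up 95.4% to 99.1%; the other Pou1f1 probe was well above background on 0 arrays. Nr3c1, Crhr1 and Crhbp are also expressed in pituitary, and the part of these markers in the member results was not tested.

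Of 5 endothelial markers, 3 rose in PR vs CD (Tek, Pecam1 and Slco1a4 by 0.76, 0.39 and 0.32, limma adjusted p = 0.00318, 0.0109 and 0.00743), where 13.4% of all probes rose. In FA vs CD 3 rose (Tek, Slco1a4 and Cldn5 by 0.88, 0.40 and 0.31, limma adjusted p = 0.00116, 0.00186 and 0.0432) and Flt1 fell by 0.33 (limma adjusted p = 0.00301), where 16.4% of all probes rose and 18.0% fell. With normexp Tek was 0.40 and 0.47 higher in these comparisons, still called. Cldn5 lost its call without any 1 of 9 arrays (the 4 CD arrays, PR replicates 2 and 4, FA replicates 2, 3 and 4, adjusted p up to 0.113) and with 75th percentile scaling (0.108) or normexp (0.0504). Between FA and PR limma called 0 (2 with an unadjusted p under 0.05, Tukey 0), where 0.614% of all probes were called and 14.1% had such a p. Their summed intensity was 20463, 19777, 20074 and 20024 in CD, 26034, 23199, 20076 and 22712 in PR, and 19934, 22302, 23190 and 21526 in FA, with the Cldn5 probe the largest part of the sum on every array and all 5 genes detected throughout. Hsd11b1, Tsc22d3, Fkbp5 and Sgk1 are also expressed outside neurons, and the part of these markers in the member results was not tested.

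Immediate early genes are switched on in neurons within minutes of activity. Of 7, 3 fell in PR vs CD (Egr2, Fos and Fosb by 0.72, 0.67 and 0.45, limma adjusted p = 0.0310, 0.0357 and 0.0180) and 2 in FA vs CD (Egr2 and Fosb by 0.84 and 0.55, limma adjusted p = 0.0135 and 0.00527), where 16.6% and 18.0% of all probes fell. Between FA and PR limma called 0 (0 with an unadjusted p under 0.05, Tukey 0), where 0.614% of all probes were called and 14.1% had such a p. The Tukey test called 0 of the 7 in PR vs CD and 1 in FA vs CD, where it called 8354 and 10037 of all 39429 probes. With 75th percentile scaling 4 fell in PR vs CD and 3 in FA vs CD, with Egr1 added in both. That scaling called 8732 of all 39429 probes lower in PR vs CD and 9544 in FA vs CD. In PR vs CD the limma count was 0 without PR replicate 3 and 1 without CD replicate 1, CD replicate 3 or PR replicate 2. Egr2 lost its call there without CD replicates 1, 2 or 3 or PR replicates 2, 3 or 4 (adjusted p up to 0.0776), Fos without CD replicates 1, 3 or 4 or PR replicates 1, 2 or 3 (up to 0.0879), and Fosb without PR replicate 3 (0.0503). The summed intensity was 58295, 56382, 55511 and 55108 in CD, 54444, 37384, 39956 and 49912 in PR, and 33288, 57367, 41108 and 52739 in FA, with the Arc or the Egr1 probe the largest part of the sum and all 7 detected on every array. The part of these genes in the Sgk1 result was not tested.

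Cyp17a1, an enzyme of androgen synthesis, was the only 1 of 4 listed steroidogenic genes detected on every array of at least 1 group. Cyp11b1 was well above background on 0 CD, 2 PR and 2 FA arrays. Cyp11b2 was so on 0 arrays of each group, and Mc2r on 0 CD, 0 PR and 1 FA arrays. Cyp17a1 is therefore not read here as a marker of adrenal tissue. It read 10.60, 10.62, 9.97 and 10.50 in CD, 9.76, 9.45, 9.60 and 9.47 in PR, and 9.13, 9.11, 8.91 and 8.75 in FA. The 3 groups did not overlap, in the order CD, PR and FA. Cyp17a1 fell by 0.85 in PR vs CD (limma adjusted p = 0.00196) and by 1.45 in FA vs CD (limma adjusted p = 9.29e-05). In FA vs PR limma called 0 of the 4 genes (1 with an unadjusted p under 0.05, Tukey 0), with an adjusted p of 0.102 for Cyp17a1. Over all probes limma called 0.614% there, and 14.1% had an unadjusted p under 0.05.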

How the data were processed

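Total RNA of whole brain was labelled with Cy3 and hybridised to single-colour Agilent mouse arrays, which the authors read with Agilent Feature Extraction 11.0.1.1. The deposited values are linear intensities normalized by the authors with the qspline method; they were set to log2 here, and spots of 1 probe were averaged. Of 43020 non-control spots, 39429 probes were tested in limma 3.58.1 (R 4.3.3), with the 3 diet groups fitted together, moderated variances, and p-values adjusted by Benjamini-Hochberg over every probe of a comparison. The study's methods used a Tukey test, which was run as an alternative, as were their limits of a 2-fold change and an adjusted p under 0.0001, applied to limma and, chosen after seeing the data, to the Tukey test. The code was tested on simulated data.

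A probe counted as detected where at least 50% of its spots were flagged well above background by the scanner software. A gene is described by its probe with the highest mean, and the other detected probes of a member or named list gene are given where their calls differ. Levels of different probes are not comparable; they were added up only for the summed intensities, and the largest part of a sum is not a measure of abundance. Named list genes are, per list and comparison, the 2 largest rises and the 2 largest falls among called genes detected on all arrays of a group, or all called genes where a list had 5 or fewer. Named likeness genes are the 5 with the highest Pearson r. Members and lists were chosen with earlier results of these data known. Correlations used deviations from group means, with exact permutations within groups. Promoter sequences came from RefSeq (GRCm38.p6), matched by symbol; probe positions are those of the array design (mm9). Where a group had a probe detected on 0 arrays, its side of the fold was set no lower than the lowest detected signal of each array. That signal comes from any probe of the array, so it is not a detection limit of the probe in question.

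Alternatives were other normalizations of the scanner signal (75th percentile, quantile, and normexp with an offset of 50), a filter on dim probes, the replicate number as a block, a trended robust variance, fits of 2 groups only, and leaving out each array. The number of arrays, 4 in each group, limits the precision. The methylation arrays of the series were not analysed here.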

Additional observations from a re-analysis of the deposited data

Results flagged for a closer look

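Tsc22d3 on CD replicate 4 read 14.01, while the other CD arrays read 14.31 to 14.32, a gap larger than Dixon's 95% limit for a group of 4 samples. It was the 1 such array among 36 combinations of probe and group examined, and chance gives about 1 in 20.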

How the results depend on the processing

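Of 792 values of the 12 member probes (3 comparisons under 10 alternatives and 12 single-array omissions), 752 kept their direction and their side of the threshold, 21 lost and 5 gained a call, and 14 changed sign, 0 of them called. Of these, 13 came from leaving out 1 array, where the values ran from -0.0288 to 0.0869 for Crh, -0.0327 to 0.117 for Hsd11b1, -0.138 to 0.0404 for Fkbp5 and -0.164 to 0.00181 for Tsc22d3 in PR vs CD, from -0.00876 to 0.102 for Crh and -0.0831 to 0.0422 for Crhr1 A_51_P229163 in FA vs CD, and from -0.0280 to 0.0877 for Crh and -0.00630 to 0.167 for Nr3c1 A_52_P254174 in FA vs PR. The other was Crhr2 in FA vs CD with normexp (-0.0121). With the methods' limits of a 2-fold change and an adjusted p under 0.0001 applied to limma, 0 member probes passed in PR vs CD, FA vs CD or FA vs PR, where all probes gave 34, 77 and 0; applied to the Tukey test, chosen after seeing the data, they left 0 member probes and 0, 1 and 0 of all probes. For FA vs PR the 242 probes called became 142 with 75th percentile scaling, 554 among probes well above background only, 436 with a trended robust variance, 101 with only the 2 groups fitted and 8 with the Tukey test; fewer probes or samples were tested in 2 of these, and the cause was not tested for the others. Leaving out each array gave 34 to 259 called probes there and 0 to 1 member probes, and in PR vs CD 9378 to 12266 and 2 to 3, in FA vs CD 11465 to 13848 and 4 to 5. Of called probes, 44.7% were higher in PR vs CD (55.7% with normexp, 55.5% with the filter on dim probes), 47.6% in FA vs CD (56.7% with normexp) and 37.2% in FA vs PR (16.2% with 75th percentile scaling). With the replicate block, 11 probes were called in FA vs PR, 10986 in PR vs CD and 12710 in FA vs CD. It gave 3, 4 and 0 member calls in PR vs CD, FA vs CD and FA vs PR, the same ones as without it. Deviations of same-numbered arrays correlated between -0.06 and 0.20, which cannot show whether the numbers pair the samples. The negative control signal rose from replicate 1 to replicate 4 in each group (28.1 to 34.8 in CD, 42.7 to 51.2 in PR and 39.3 to 47.6 in FA). No pairing was stated, and the samples were treated as unpaired in the main fit. All member probes were well above background, but normexp, which was followed by quantile normalization, moved dim and bright ones. Nr3c2 went from -0.23 to -0.13 in FA vs CD and Nr3c1 A_52_P254174 from -1.20 to -0.92 in PR vs CD. The brighter Nr3c1 A_55_P1967885 went from -0.10 to -0.15 in PR vs CD and from -0.26 to -0.35 in FA vs CD.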

Other observations

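Markers of other brain cell types were measured in the same fits, with limma adjusted p-values; over all probes 30.0% were called in PR vs CD (13.4% higher, 16.6% lower) and 34.4% in FA vs CD (16.4% and 18.0%). Of 5 astrocyte markers, Gfap, the intermediate filament of astrocytes, rose by 0.43 in PR vs CD (adjusted p = 0.000992) and by 0.32 in FA vs CD (adjusted p = 0.00446), while the water channel gene Aqp4 fell by 0.21 (adjusted p = 0.0358) and 0.35 (adjusted p = 0.00256). Gfap read 13.49, 13.36, 13.45 and 13.35 in CD, 13.81, 13.85, 13.89 and 13.83 in PR, and 13.87, 13.56, 13.81 and 13.69 in FA, with no overlap between CD and either group; of its 2 other probes 1 was not called (0.15 and 0.00263, adjusted p = 0.213 and 0.985). The Aqp4 call in PR vs CD was lost without CD replicates 1, 2 or 3 or PR replicates 1, 3 or 4 (adjusted p up to 0.0910) and with normexp (0.126), and its other probe was not called (-0.21, adjusted p = 0.0598). Of 5 oligodendrocyte markers, the myelin gene Mog rose by 0.29 in PR vs CD (adjusted p = 0.0257) and by 0.34 in FA vs CD (adjusted p = 0.0104), and the first of these was lost without CD replicates 1, 2 or 3 or PR replicates 1 or 3 (adjusted p up to 0.0676).

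Of 5 microglial markers, Aif1 fell by 0.37 in PR vs CD (limma adjusted p = 0.00957) and by 0.28 in FA vs CD (adjusted p = 0.0313, lost without CD replicate 4, FA replicate 1 or FA replicate 4, up to 0.0834), and Csf1r fell by 0.14 in FA vs CD (adjusted p = 0.0465). The Csf1r call was lost without any 1 of 9 arrays (CD replicates 1, 2 and 3, PR replicates 3 and 4, and the 4 FA arrays, up to 0.116) and with quantile normalization (0.0560), and the fall was 0.23 with 75th percentile scaling. Another Csf1r probe, A_52_P602091, rose by 0.17 in FA vs CD (adjusted p = 0.0214), and a further one was not called (-0.25, adjusted p = 0.0742). Probe A_52_P602091 was also higher in PR, where it read 9.40 to 9.50 against 9.14 to 9.21 in CD. The other 3 markers were not called: Tmem119 (0.14 and 0.05 in PR vs CD and FA vs CD, adjusted p of 0.122 or more), P2ry12 (0.15 and 0.13, adjusted p = 0.313 and 0.351) and Cx3cr1 (-0.24 and -0.21, adjusted p = 0.0558 and 0.0855). The other Cx3cr1 probe, A_52_P99810, rose by 0.62 and 0.38 (adjusted p = 0.000152 and 0.00209), with every PR and FA array above every CD array. With 75th percentile scaling Cx3cr1, Csf1r and Aif1 were called lower in both comparisons with CD. That scaling called 8732 of all 39429 probes lower in PR vs CD and 9544 in FA vs CD. Of the 4 neuron markers on the array, Nefl rose by 0.19 and 0.17 in PR vs CD and FA vs CD (limma adjusted p = 0.0305 and 0.0377) and Snap25 fell by 0.15 in PR vs CD (adjusted p = 0.0319). Each of these 3 calls was lost without at least 5 of the single arrays (adjusted p up to 0.0707, 0.0991 and 0.0821), and Nefl was 0.03 in both comparisons with 75th percentile scaling. Snap25 fell by 0.31 in PR vs CD (adjusted p = 0.00212) and by 0.21 in FA vs CD (adjusted p = 0.0149) with that scaling, and was not called in PR vs CD with normexp (adjusted p = 0.0654). Of 5 choroid plexus markers, Kcnj13 rose by 0.19 in PR vs CD (limma adjusted p = 0.0459, lost without any 1 of 9 arrays, up to 0.110, with 75th percentile scaling, 0.0502, and with normexp, 0.0608, and not called on its other probe, -0.05, adjusted p = 0.596) and 0 were called in FA vs CD (0 with an unadjusted p under 0.05, Tukey 0), where Ttr was lower with 75th percentile scaling. Of the 3 blood markers on the array, limma called 0 in each comparison (0 with an unadjusted p under 0.05, Tukey 0), and with 75th percentile scaling Hbb-b1 was lower in FA vs CD. In FA vs PR limma called 0 of the neuron, astrocyte, oligodendrocyte, microglia and choroid plexus markers, where 2 choroid plexus markers and 0 of the others had an unadjusted p under 0.05 and the Tukey test called 0. Over all probes limma called 0.614% there, and 14.1% had an unadjusted p under 0.05.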
